A study of Mus musculus with 4 samples.

Results

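The nuclear genes for subunits of the mitochondrial respiratory chain and ATP synthase were followed in mouse T cells grown under Th9 conditions with or without the cytokine TL1A. The genes were taken by name from all 23480 gene identifiers in the tables. Protein-coding genes with symbols of the Nduf, Sdh, Uqcr, Cox4 to Cox8 and Atp5 series were kept, together with Cyc1. Assembly factors of the Ndufaf series were not kept, and no Cox4 gene matched the name pattern. This choice gave 83 genes. Of these, 37 belong by name to complex I, 4 to complex II, 9 to complex III, 16 to complex IV and 17 to complex V. No expression value entered the choice.

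RNA of T cells was sequenced in 4 libraries, 2 labelled as the Th9 condition and 2 as the Th9 condition with TLA1. Th9 cells, a helper subset, are named for interleukin 9, and TL1A, a TNF family cytokine, is taken to be what the sample labels spell TLA1. All 4 libraries share the Th9 condition, and mouse strain, age, culture time and cytokine dose are not given in the labels used here. The labels do not tie replicates to separate animals or cultures, so a p-value here reflects library-to-library spread that may be technical.

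The respiratory chain sits in the inner mitochondrial membrane. Complexes I and II pass electrons from NADH and succinate to ubiquinone, complex III passes them to cytochrome c, and complex IV passes them to oxygen. Protons pumped by complexes I, III and IV drive complex V, the ATP synthase. Most subunits are encoded in the nucleus, and core membrane subunits of every complex but complex II are encoded in mitochondrial DNA. T cells are known to enlarge their mitochondrial content after activation and to use respiration beside glycolysis.

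The values deposited by the authors are CPM, read counts scaled to the same total in every library. The Th9 libraries held 4041633 and 3167270 reads and the TL1A libraries 2979482 and 3081187, and 3 reads correspond to 0.742 to 1.01 CPM. The respiratory subunit genes together took between 43416 and 51283 reads per library. All 8 T cell markers had reads, with a summed level of 2733 to 3173 CPM in Th9 libraries and 3662 and 3492 CPM with TL1A. B cell markers summed to 11.9 and 15.5 CPM in Th9 libraries and 28.9 and 29.2 CPM with TL1A, with Ms4a1 and Pax5 at 0, and macrophage or monocyte markers to 3.22 and 1.89 CPM against 7.72 and 4.54 CPM, with Lyz2, Csf1r and Cd14 at 0. Dendritic cell markers summed to 5.69 and 3.16 CPM in Th9 libraries and 15.4 and 8.76 CPM with TL1A. These 3 sums, like that of the T cell markers, were higher in both TL1A libraries. The rises of the B cell, macrophage or monocyte and dendritic cell sums rested mainly on single genes, and that of the T cell markers on several. Cd79b was at 6.19 and 12.9 CPM in Th9 libraries and 24.2 and 28.6 CPM with TL1A. Cd68 was at 0.990 and 1.58 against 7.72 and 4.54 CPM, and Zbtb46 at 5.44 and 2.84 against 12.1 and 7.14 CPM. Blnk (1.49 and 2.53 CPM) and Adgre1 (1.98 and 0.316 CPM) had reads in Th9 libraries and 0 with TL1A. CD8 T cell markers summed to 7.92 and 13.3 CPM in Th9 libraries and 9.73 and 10.1 CPM with TL1A, mostly from Cd8b1. NK and mast cell markers summed to at most 5.05 CPM, and the 4 erythroid markers were at 0. The part of these cells in the results was not tested. In bulk RNA, fewer cells of a type and less RNA per cell cannot be told apart.

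Fitted differences in respiratory chain messenger RNA between cells with and without TL1A were small in all 5 complexes, and most leaned towards a higher level with TL1A. Of the 83 genes, 76 had enough reads to test, and limma called 0 of them at an adjusted p under 0.05, where 1.14% of all 10324 tested genes were called. At an unadjusted p under 0.05, limma picked 6 genes, all with a higher fitted level with TL1A, beside 16.7% of all tested genes (8.54% higher and 8.15% lower). EdgeR and DESeq2 on the recovered reads also called 0, beside 1.07% and 2.66% of all tested genes, with 5 subunit genes each at an unadjusted p under 0.05. The 6 genes were Atp5d of complex V, Cox7a2l and Cox8a of complex IV, Uqcrh and Uqcrfs1 of complex III, and Ndufs4 of complex I.

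The fitted log2 fold changes of TL1A over Th9 ran from -0.26 for Ndufs1 to 0.63 for Cox7a2l, with a median of 0.13 beside -0.01 over all tested genes. Their median absolute size was 0.16, beside 0.33 over all tested genes and 0.27 over the 5085 other genes with a mean between 35.3 and 393 CPM, the range that holds the middle of the subunit genes. By complex the median was 0.12 for complex I, 0.25 for II, 0.11 for III, 0.12 for IV and 0.13 for V. The fitted value was above 0 for 57 genes and below 0 for 19, where 48.9% of all tested genes were above 0. The limma 95% intervals are per gene and cover only the spread between these libraries, 2 per group. That spread may be technical, so they do not bound differences between animals or cultures. For 66 of the 76 genes the interval lay within a 2-fold difference in either direction, as it did for 44.2% of all tested genes. The other 10 reached a 2-fold higher level (Ndufa11, Ndufb2, Ndufb4, Sdhc, Uqcrh, Cox7a1, Cox7a2l, Cox8a, Atp5d and Atp5md), and 2 of these also reached a 2-fold lower one.

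**Figure D1:**
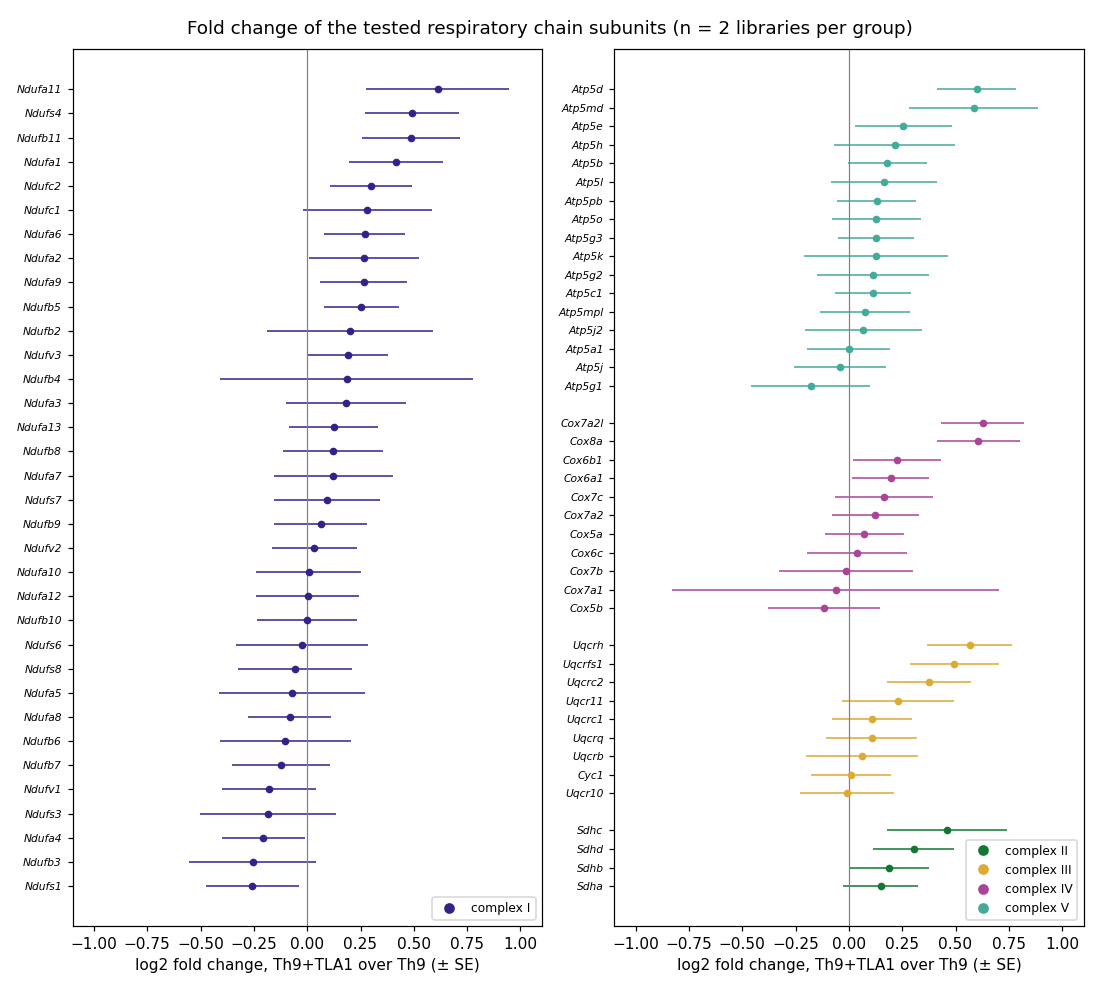
Log2 fold change of TL1A over Th9 for the tested subunit genes by complex, with 1 gene not drawn, and with bars of 1 standard error from limma and n = 2 libraries per group. Values lie between -0.26 and 0.63, and none passed the adjusted threshold.

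Deposited CPM were higher in both TL1A libraries than in both Th9 libraries for 18 of the 76 genes and lower in both for 8. The same held for 19.1% and 29% of all tested genes, which together make 48.1%. The levels of the other 50 subunit genes overlapped between the groups.

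Some of these genes share sequence features at their starts, which the choice by name did not use. Promoter windows from RefSeq (GRCm38.p6, the assembly of mm10, from 250 bases before to 50 after the start) were found for 68 of the 83 genes and searched on both strands for exact letters. NRF1 and GABP, an ETS family factor, are transcription factors known for binding promoters of respiratory genes. The NRF1 motif GCGCATGCG was in 8 of the 68 (11.8%), beside 2.61% of 17492 protein-coding genes with a window. The motif AAGATGGCG of the factor YY1 was in 7 (10.3%), beside 2.14%, and the ETS motif CCGGAAGT in 5 (7.35%), beside 5.69%. The E-box CACGTG was in 6 (8.82%), beside 8.91%, and TATAAA in 8 (11.8%), beside 14.8%. A match is a description of letters and not evidence of binding. The motif letters were chosen after expression values were seen, and those of NRF1 and YY1 were then shortened. Their shares are therefore a description and not a test. These stretches from the strand of the gene show how the NRF1 letters, in capitals, lie in 4 of the promoters, each from another gene of complex I, IV or V, and in Uqcrh of complex III the capitals mark the reverse complement of the ETS letters.
Ndufa11: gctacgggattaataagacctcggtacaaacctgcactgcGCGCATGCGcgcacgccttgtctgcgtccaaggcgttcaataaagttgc
Cox6a1: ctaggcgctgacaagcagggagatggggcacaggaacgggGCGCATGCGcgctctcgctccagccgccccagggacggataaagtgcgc
Atp5g2: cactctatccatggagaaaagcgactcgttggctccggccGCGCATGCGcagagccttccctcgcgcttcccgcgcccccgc
Atp5k: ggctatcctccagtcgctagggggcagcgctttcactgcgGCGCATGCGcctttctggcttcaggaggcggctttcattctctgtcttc
Uqcrh: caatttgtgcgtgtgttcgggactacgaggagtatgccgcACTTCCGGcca

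The stretches lie at chr17:56717662-56717750 on the plus strand for Ndufa11 and on the minus strand at chr5:115349072-115349160 for Cox6a1, chr15:102671048-102671129 for Atp5g2, chr5:108434401-108434489 for Atp5k and chr4:116075071-116075121 for Uqcrh. The first base of the motif is 60 bases upstream of the start in Ndufa11, 162 in Cox6a1, 42 in Atp5g2, 50 in Atp5k and 11 in Uqcrh. The NRF1 letters were also in Ndufa8, Uqcr11, Uqcrc1 and Atp5l. The 8 genes with these letters had log2 fold changes of 0.61 (Ndufa11), -0.08 (Ndufa8), 0.23 (Uqcr11), 0.11 (Uqcrc1), 0.20 (Cox6a1), 0.11 (Atp5g2), 0.13 (Atp5k) and 0.16 (Atp5l), so that Ndufa11 alone lay far from the median of the subunit genes. The ETS letters were in Ndufs3, Uqcr11, Uqcrh, Cox8a and Atp5h, with log2 fold changes of -0.18, 0.23, 0.57, 0.61 and 0.22. The YY1 letters were in the complex I genes Ndufa9, Ndufc1, Ndufs4, Ndufs6 and Ndufs7, with 0.26, 0.28, 0.49, -0.02 and 0.09, and in the complex V genes Atp5j and Atp5j2, with -0.04 and 0.07. Each of these 3 groups held fitted values on both sides of 0.

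Complex I oxidises NADH through a peripheral arm that carries flavin and iron-sulfur clusters. Of its 37 genes 35 were tested, 23 with a fitted value above 0 and 12 below. Ndufs4, an accessory subunit of the peripheral arm whose loss is a known cause of complex I deficiency, lies at chr13:114287795-114388094. It was at 89.1 and 105 CPM in Th9 libraries and 142 and 115 CPM with TL1A. Both TL1A libraries were above both Th9 libraries, the second by a small margin, and the log2 fold change was 0.49 ± 0.22 (SE, n = 2 per group; adjusted p = 0.293 by limma).

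None of the catalytic core subunits of complex I passed the test. Fitted log2 fold changes of core genes lay below 0 for Ndufs3 (-0.18) and Ndufs8 (-0.06) and above 0 for Ndufs7 (0.09) and Ndufv2 (0.03), and Ndufs1 and Ndufv1 were below 0. Ndufs1, the largest iron-sulfur subunit, was at 173 and 144 CPM in Th9 libraries and 104 and 148 CPM with TL1A (log2 fold change -0.26 ± 0.22, SE; adjusted p = 0.604 by limma). Only the first TL1A library stood below the rest, and the groups overlapped. Ndufv1, which binds the flavin and NADH, was at 120 and 128 CPM in Th9 libraries and 88.6 and 119 CPM with TL1A (log2 fold change -0.18 ± 0.22, SE; adjusted p = 0.743 by limma). The first TL1A library was again the low one.

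The accessory subunits of complex I held its largest fold change. Ndufa11, a membrane arm subunit, was at 21.8 and 22.4 CPM in Th9 libraries and 32.9 and 31.5 CPM with TL1A (log2 fold change 0.61 ± 0.34, SE; adjusted p = 0.392 by limma). Replicates agreed closely in both groups, but the gene rested on 71 to 98 reads per library. Ndufb11, another membrane arm subunit, was at 106 and 93.5 CPM in Th9 libraries and 158 and 108 CPM with TL1A (log2 fold change 0.49 ± 0.23, SE; adjusted p = 0.315 by limma). Its difference came mainly from the first TL1A library, since the second was near the first Th9 library. Ndufa9, the most abundant complex I gene by CPM, was at 282 and 388 CPM in Th9 libraries and 365 and 381 CPM with TL1A, so that only the first Th9 library stood apart (log2 fold change 0.26 ± 0.20, SE; adjusted p = 0.556 by limma). Per kilobase of transcript the highest complex I gene was Ndufa6, at 368 CPM per kb averaged over the 4 libraries.

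Ndufs5, an accessory subunit of complex I, had 1 read in the second TL1A library and 0 in the other 3, and was not tested. Ndufs5-ps, a transcribed pseudogene that the choice of protein-coding genes left out, had 93 and 102 reads in Th9 libraries and 136 and 96 with TL1A. These are levels of 23.0, 32.2, 45.7 and 31.2 CPM, which overlapped between the groups (log2 fold change 0.54 ± 0.35, SE; adjusted p = 0.468 by limma). Ndufs5 lies at chr4:123712710-123718186 and Ndufs5-ps at chr16:42955580-42956079. Of the 318 coding bases of Ndufs5, 316 (99.4%) were identical in the pseudogene, in GENCODE M21 transcripts for GRCm38. Both differences fall in the first 120 coding bases, printed here with the differing bases in capitals to show how little separates them.
Ndufs5: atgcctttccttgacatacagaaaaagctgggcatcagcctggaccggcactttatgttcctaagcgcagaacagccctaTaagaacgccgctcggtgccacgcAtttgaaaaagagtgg
Ndufs5-ps: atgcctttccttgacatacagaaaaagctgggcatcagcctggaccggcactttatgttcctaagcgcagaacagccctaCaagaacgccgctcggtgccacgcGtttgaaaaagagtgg
Counted from 1 at the A of the coding start, with the base of Ndufs5 first, the differences are T81C and A105G. No source used here says how reads that match both were assigned, so the level of Ndufs5 itself is uncertain. Of the 83 genes, 21 have at least 1 other transcript with 95% or more identity over at least 200 bases, most often a pseudogene, and Atp5l has 9. Ndufb11 and Cox7a2l have 1 such copy each. Some loci overlap that of another gene, among them those of Ndufs1 (Ino80dos), Ndufa9 (1700018A23Rik), Ndufb11 (Rbm10), Sdhc (Gm46172), Uqcrc2 (Pdzd9), Cox7a2 (Gm51685 and Tmem30a), Atp5a1 (Haus1), Atp5l (Gm30934) and Atp5md (Taf5). The library kit does not mark strand, so reads from a stretch that both genes transcribe cannot be told apart. The overlaps are of whole gene spans with introns, and shared exons were not looked for.

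Complex II, succinate dehydrogenase, also belongs to the citrate cycle and has no subunit encoded in mitochondrial DNA. All 4 of its genes were tested, and each had a fitted value above 0 and its lowest scaled level in the first Th9 library. Sdha, the flavoprotein that oxidises succinate, was at 528 and 583 CPM in Th9 libraries and 536 and 621 CPM with TL1A (log2 fold change 0.15 ± 0.18, SE; adjusted p = 0.733 by limma). Its groups overlapped. Sdhb, the iron-sulfur subunit, was at 206 and 223 CPM in Th9 libraries and 212 and 248 CPM with TL1A (log2 fold change 0.19 ± 0.19, SE; adjusted p = 0.666 by limma), and overlapped as well.

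The membrane anchors of complex II had larger fitted values. Sdhc was at 62.4 and 107 CPM in Th9 libraries and 119 and 93.8 CPM with TL1A (log2 fold change 0.46 ± 0.28, SE; adjusted p = 0.449 by limma). The 2 Th9 libraries spanned most of the range of the 4, and without the first the log2 fold change was 0.04. Sdhd was at 250 and 313 CPM in Th9 libraries and 334 and 315 CPM with TL1A (log2 fold change 0.31 ± 0.19, SE; adjusted p = 0.454 by limma). Its second libraries of each group were almost level.

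Complex III moves electrons from ubiquinol to cytochrome c, and all 9 of its genes were tested. Uqcrfs1 encodes the Rieske iron-sulfur protein, which takes the electron from ubiquinol, and lies at chr13:30540312-30545316. It was at 364 and 523 CPM in Th9 libraries and 594 and 561 CPM with TL1A (log2 fold change 0.49 ± 0.21, SE; adjusted p = 0.262 by limma). The TL1A libraries were higher, and the gap between the Th9 replicates was wider than that between the groups' nearest libraries. Without the first Th9 library its log2 fold change was 0.19. Uqcrh, the acidic hinge subunit beside cytochrome c1, lies at chr4:116066965-116075070. It was at 140 and 172 CPM in Th9 libraries and 227 and 206 CPM with TL1A (log2 fold change 0.57 ± 0.20, SE; adjusted p = 0.192 by limma). Its groups did not overlap, and its locus overlaps that of Gm12854. Without the first Th9 library its log2 fold change was 0.37.

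The other core genes of complex III differed less. Cyc1, cytochrome c1, was at 244 and 250 CPM in Th9 libraries and 256 and 212 CPM with TL1A (log2 fold change 0.01 ± 0.19, SE; adjusted p = 0.988 by limma). Uqcrc1, a core protein and the most abundant complex III gene after Uqcrfs1 by CPM, was at 406 and 516 CPM in Th9 libraries and 457 and 471 CPM with TL1A, inside the range of the Th9 replicates (log2 fold change 0.11 ± 0.19, SE; adjusted p = 0.828 by limma). Uqcrc2, the other core protein, was at 322 and 435 CPM in Th9 libraries and 460 and 454 CPM with TL1A (log2 fold change 0.38 ± 0.20, SE; adjusted p = 0.368 by limma). The second Th9 library was close to the TL1A libraries.

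Complex IV, cytochrome c oxidase, carries out its chemistry in subunits encoded in mitochondrial DNA, while the nuclear subunits surround them and often exist as tissue isoforms. Of its 16 genes 11 were tested. Cox7a2l is known as a factor that joins complexes III and IV into supercomplexes and lies at chr17:83501917-83514333. It was at 159 and 176 CPM in Th9 libraries and 269 and 219 CPM with TL1A (log2 fold change 0.63 ± 0.19, SE; adjusted p = 0.146 by limma). Cox8a, the ubiquitous isoform of the small subunit VIII, lies at chr19:7215158-7217616. It was at 159 and 201 CPM in Th9 libraries and 258 and 253 CPM with TL1A (log2 fold change 0.61 ± 0.20, SE; adjusted p = 0.160 by limma). In both genes each TL1A library was above each Th9 library. Without the first Th9 library the log2 fold change of Cox8a was 0.40.

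The subunits Cox5a and Cox5b, on the matrix side of complex IV, overlapped between the groups. Cox5a was at 281 and 241 CPM in Th9 libraries and 285 and 231 CPM with TL1A (log2 fold change 0.07 ± 0.19, SE; adjusted p = 0.891 by limma). In each group the first library was higher. Cox5b was at 62.4 and 90.6 CPM in Th9 libraries and 64.1 and 65.9 CPM with TL1A (log2 fold change -0.12 ± 0.26, SE; adjusted p = 0.873 by limma), with only the second Th9 library apart. Cox6a1, the ubiquitous form of subunit VIa and the most abundant by CPM of the complex IV genes taken by name, was at 460 and 496 CPM in Th9 libraries and 568 and 464 CPM with TL1A (log2 fold change 0.20 ± 0.18, SE; adjusted p = 0.643 by limma).

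The isoforms of complex IV split sharply by level. Per kilobase of transcript, the ubiquitous forms averaged 870 CPM per kb for Cox6a1, 396 for Cox8a, 201 for Cox6b1 and 193 for Cox7a2 over the 4 libraries. Their partners known from heart and skeletal muscle or testis were at or near the limit of detection. Cox6a2 averaged 0.791 CPM per kb, Cox6b2 averaged 5.20 and Cox7a1 averaged 8.30, while Cox8b, Cox8c and Cox7b2 had 0 reads in every library, which allows up to 0.742 to 1.01 CPM. Cox7a1, the muscle form of subunit VIIa, was at 3.22 and 3.16 CPM in Th9 libraries and 5.37 and 1.30 CPM with TL1A, with both extremes in the TL1A group, and its fold change had a 95% interval too wide to give a direction (-1.73 to 1.61 on the log2 scale). Cox6b2, the testis form of VIb, was at 1.98 and 2.21 CPM in Th9 libraries and 5.03 and 2.27 CPM with TL1A, and Cox6a2, the muscle form of VIa, at 0.247 and 1.58 against 0 and 0.325 CPM. These and Ndufa4l2, with 1 read in the first TL1A library, were too low to test. The ubiquitous Cox6b1 (111, 126, 137 and 123 CPM, Th9 libraries first) and Cox7a2 (121, 131, 140 and 118 CPM) overlapped between the groups, with log2 fold changes of 0.23 and 0.12.

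**Figure D2:**
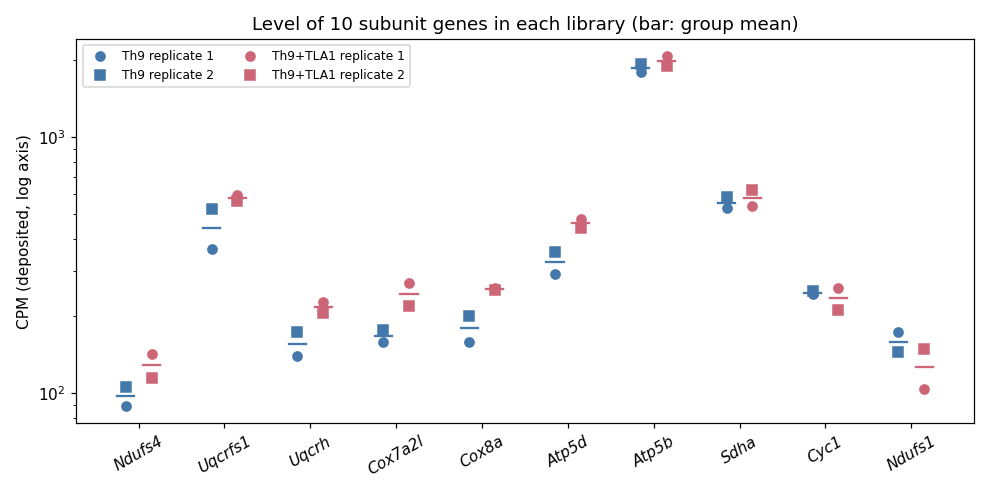
Deposited CPM (log axis) of 10 subunit genes in each of the 4 libraries, with a bar at the mean of each group. The 6 genes at the left are those with an unadjusted limma p under 0.05, and in the 4 at the right the groups overlap.

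Complex V makes ATP in its F1 head as a ring of c subunits in the membrane turns the central stalk inside it. All 17 of its genes were tested, 14 with a fitted value above 0. Atp5d, the delta subunit of the central stalk, lies at chr10:80138698-80145828 and had the smallest limma p of all the subunit genes. It was at 293 and 357 CPM in Th9 libraries and 478 and 443 CPM with TL1A (log2 fold change 0.60 ± 0.19, SE; adjusted p = 0.146 by limma). Both TL1A libraries were clearly above both Th9 libraries, and its locus overlaps Cbarp. Without the first Th9 library the log2 fold change of Atp5d was 0.415.

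The other head and stalk genes described here overlapped between the groups. Atp5e, the epsilon subunit that binds delta in the same stalk, was at 79.4 and 98.5 CPM in Th9 libraries and 105 and 93.8 CPM with TL1A (log2 fold change 0.26 ± 0.23, SE; adjusted p = 0.625 by limma). Atp5b, the catalytic beta subunit and the most abundant of the 83 nuclear genes, was at 1802 and 1930 CPM in Th9 libraries and 2070 and 1901 CPM with TL1A (log2 fold change 0.18 ± 0.18, SE; adjusted p = 0.679 by limma). Atp5a1, the alpha subunit, was at 1009 and 1306 CPM in Th9 libraries and 1093 and 1059 CPM with TL1A, between the Th9 replicates (log2 fold change -0.0011 ± 0.19, SE; adjusted p = 0.999 by limma). Per kilobase the level averaged 1005 CPM per kb for Atp5b and 452 for Atp5a1, which share the head in equal copies. Atp5md, a small membrane subunit linked to dimers of the synthase, was at 29.4 and 35.7 CPM in Th9 libraries and 50.3 and 42.2 CPM with TL1A, with no overlap (log2 fold change 0.58 ± 0.30, SE; adjusted p = 0.361 by limma).

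Subunit c is made from 3 genes that encode the same mature protein. Atp5g3 carried most of the counted message, at an average of 437 CPM per kb beside 70.6 for Atp5g1 and 66.2 for Atp5g2. By the near-copy search above, Atp5g1 has 1 pseudogene copy, Atp5g2 has 2 and Atp5g3 has 0. How reads that match a gene and its copy were assigned is not known, so the levels of Atp5g1 and Atp5g2 are uncertain. Atp5g3 was at 346 and 272 CPM in Th9 libraries and 311 and 318 CPM with TL1A, inside the range of the Th9 replicates (log2 fold change 0.13). Atp5g1 was at 48.3 and 43.9 CPM in Th9 libraries and 35.9 and 40.2 CPM with TL1A (log2 fold change -0.18 ± 0.28, SE; adjusted p = 0.805 by limma). Atp5g2 was at 48.0 and 48.0 CPM in Th9 libraries and 48.7 and 49.0 CPM with TL1A, the flattest of the 3.

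Summed over the genes of a complex, the level was higher in both TL1A libraries than in both Th9 libraries for complexes III and IV only. Complex III summed to 1771 and 2202 CPM in Th9 libraries and 2278 and 2220 CPM with TL1A, a ratio of means of 1.13. Complex IV summed to 1537 and 1633 CPM and to 1905 and 1647 CPM, a ratio of 1.12. In both, the closest libraries of the groups were nearly level.

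The sums of complexes I, II and V overlapped. Complex I summed to 3477 and 3837 CPM in Th9 libraries and 3799 and 3716 CPM with TL1A. Complex II summed to 1046 and 1225 CPM and to 1202 and 1278 CPM, and complex V to 4857 and 5499 CPM and to 5507 and 5230 CPM. All 83 genes together took 1.27% and 1.44% of reads in Th9 libraries and 1.47% and 1.41% with TL1A, so the first Th9 library was the low one.

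**Figure D3:**
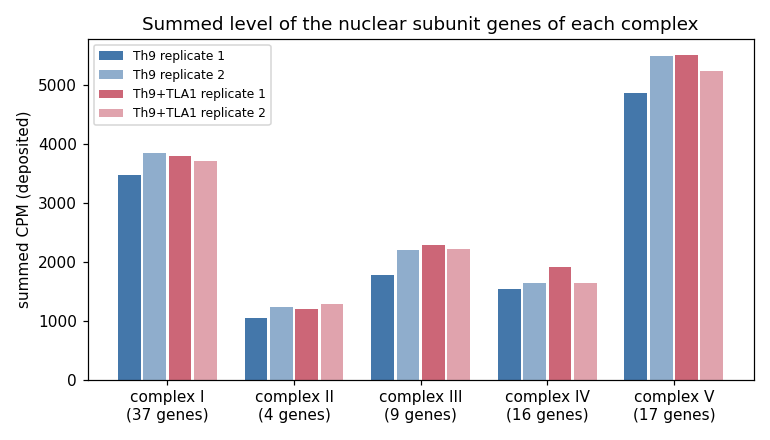
Deposited CPM summed over the nuclear subunit genes of each complex, with 1 bar per library and the axis from 0. The first Th9 library has the lowest bar in all 5 complexes.

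The first Th9 library stood low for most of the subunit genes. Of the 76 tested genes, 47 had their lowest scaled level in the first Th9 library, 13 in the second, 6 in the first TL1A library and 10 in the second, where 28.8%, 20.4%, 28.6% and 22.3% of all tested genes had it. The median deviation from each gene's mean was -0.19 in the first Th9 library, 0.02 in the second, 0.09 in the first TL1A library and 0.05 in the second, on the log2 scale. The second Th9 library was above the first for 58 of the 76 genes. The 2 Th9 libraries differed by more than the group means for 50 of 76 genes (65.8%), beside 50.2% of all tested genes. The 2 TL1A libraries did so for 35 of 76 genes, a count not made over all tested genes. A difference between 2 single libraries varies more than one between 2 means. These counts alone therefore do not show an unusual spread.

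Leaving out one Th9 library moved the median in opposite ways. Without the first, the median log2 fold change of the 76 genes was 0.06, with 2 genes at an unadjusted p under 0.05, beside 10.1% of all tested genes. Without the second, it was 0.26, with 12 such genes, beside 17.6% of all tested genes, and limma called Uqcrfs1 (log2 fold change 0.81, adjusted p = 0.0278) and Atp5d (0.80, adjusted p = 0.0382). In that fit 3.02% of all tested genes were called, 2.26% as higher, and the lone Th9 library was assumed to vary like the TL1A libraries.

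**Figure D4:**
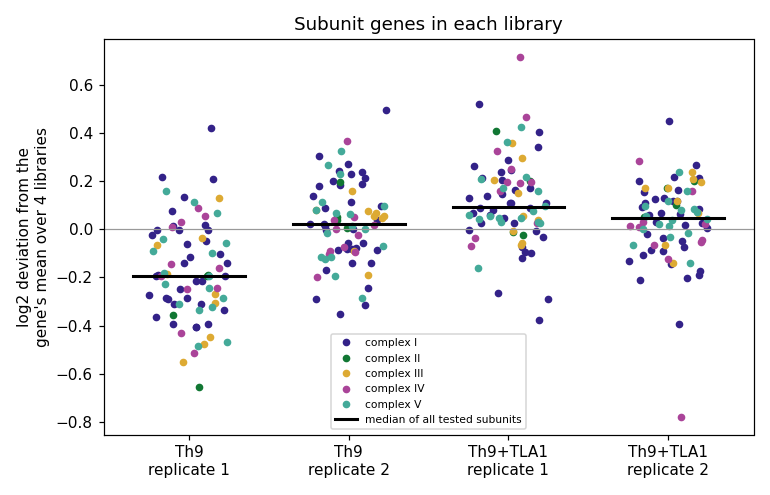
Log2 deviation of each of the 76 tested subunit genes from its own mean over the 4 libraries, 1 column of points per library, with a bar at the median. The median is -0.19 in the first Th9 library and between 0.02 and 0.09 in the other 3.

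Messages of the respiratory chain are short, with a median transcript of 750 bases beside 2872 over all tested genes, and 71 of the 76 tested were under 2000 bases. In these libraries the fitted difference moved with length across all genes. Other genes under 600 bases had a median log2 fold change of 0.11 (121 genes), those of 600 to 1000 bases 0.15 (498 genes), those of 1000 to 2000 bases 0.07 (2204 genes), those of 2000 to 4000 bases -0.02 (4165 genes) and those of 4000 bases or more -0.10 (2996 genes). The subunit genes had medians of 0.19 (24 genes), 0.07 (25 genes), 0.16 (22 genes) and 0.01 (5 genes) in the first 4 of these ranges. Over 2036 other genes within the middle of the subunit genes' lengths, 439.5 to 1698 bases, the median was 0.10, beside 0.13 for the subunit genes. With a smooth trend on length and GC content taken out of each library, the median of the subunit genes was 0.00077 and that of all tested genes 0.0019. With the trend removed, the log2 fold change was 0.37 for Cox8a, 0.38 for Ndufa11 and 0.40 for Atp5d, beside 0.61, 0.61 and 0.60 without that step.

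**Figure D5:**
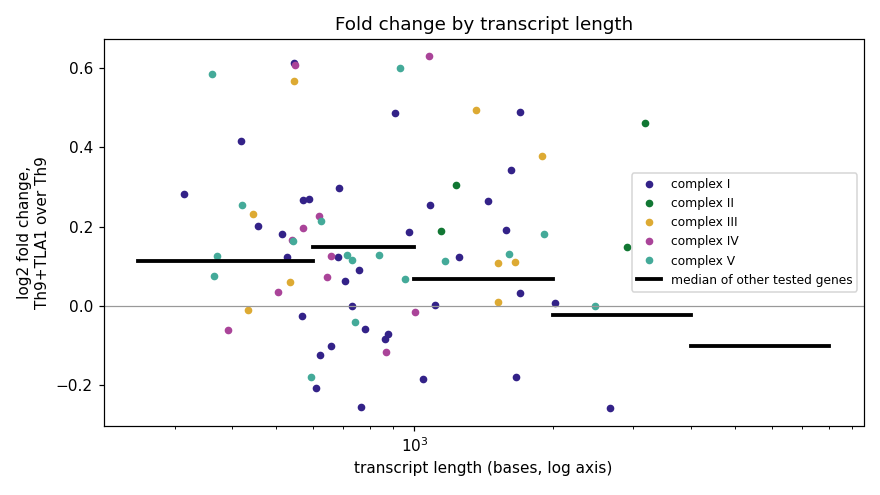
Log2 fold change of TL1A over Th9 against transcript length (log axis) for the 76 tested subunit genes, with black bars at the median of the other tested genes in each length range. The bars run from 0.15 at 600 to 1000 bases to -0.10 at 4000 bases or more, and 71 points lie under 2000 bases.

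Genes that work beside these subunits were also short of the threshold. Cycs, the soluble cytochrome c that carries electrons between complexes III and IV, was at 242 and 199 CPM in Th9 libraries and 112 and 145 CPM with TL1A (log2 fold change -0.68 ± 0.20, SE; adjusted p = 0.136 by limma). Both TL1A libraries were below both Th9 libraries, opposite in sign to the fitted value of most subunits. Cox4i1, the main form of subunit IV, whose symbol the name pattern does not take, was at 421 and 494 CPM in Th9 libraries and 622 and 523 CPM with TL1A (log2 fold change 0.41 ± 0.19, SE; adjusted p = 0.288 by limma). Ndufab1, an acyl carrier protein bound to complex I, was at 18.3 and 12.6 CPM in Th9 libraries and 18.8 and 17.2 CPM with TL1A (log2 fold change 0.31 ± 0.42, SE; adjusted p = 0.763 by limma).

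Limma called 0 genes in each of the lists that surround the chain. Counts at an unadjusted p under 0.05 stand here beside 8.54% higher and 8.15% lower over all tested genes. For 47 assembly factors the median log2 fold change was 0.09, with 0 at an unadjusted p under 0.05. For 13 citrate cycle genes it was 0.06, with 1 higher and 1 lower at that level, and for 24 import genes -0.03, with 0. For 78 genes of the mitochondrial ribosome it was 0.13, with 4 higher and 0 lower, and Mrpl14 among them was at 43.6 and 51.2 CPM in Th9 libraries and 94.0 and 76.3 CPM with TL1A (limma adjusted p = 0.118). For 78 cytosolic ribosomal protein genes, which are also short, it was 0.32, with 22 higher and 0 lower. The gene with the smallest limma p was Ndufaf4 among assembly factors (log2 fold change -0.71) and Suclg1 in the citrate cycle (0.46). It was Grpel1 among import genes (0.40) and Rps3 among cytosolic ribosomal protein genes (0.70).

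Regulators of mitochondrial biogenesis had a median of -0.16 over 15 tested genes, with 0 higher and 3 lower at an unadjusted limma p under 0.05, beside 8.54% and 8.15% of all tested genes. Gabpa, the DNA-binding subunit of GABP, was at 132 and 150 CPM in Th9 libraries and 69.1 and 103 CPM with TL1A (log2 fold change -0.63 ± 0.24, SE; adjusted p = 0.218 by limma), and its locus overlaps that of the complex V gene Atp5j. Pprc1, a coactivator of the PGC-1 family, had a log2 fold change of -0.53 (limma adjusted p = 0.263), and Esrra, a nuclear receptor that works with that family, one of -1.24 (limma adjusted p = 0.276). Nrf1 had -0.21 and Tfam, the factor that packages and transcribes mitochondrial DNA, had -0.15. Ppargc1a had 0 reads in every library. The 13 subunits encoded in mitochondrial DNA were looked for by symbol, none was matched to an identifier, and they were not analysed here.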

How the data were processed

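RNA of mouse T cells was measured in 4 libraries. Per the labels' protocols, cDNA came from a SMARTer Ultra Low Input kit, which does not mark strand, and fragments were read on an Ion Torrent instrument. The values the authors deposited are CPM, 1 table per library, and HTSeq 0.5.4, mm10 and edgeR appear in the submitters' processing notes. The aligner was not given in the sources used here, nor was the annotation. In each library 100% of non-zero values were whole reads within 0.01 of a read. Low-input reads are not independent molecules, so floors cover counting error only.

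Symbols came from a RefSeq table of GRCm38.p6, which matched 23383 of 23480 identifiers. Transcript lengths came from GENCODE M21 (the principal isoform). Genes were filtered with filterByExpr on recovered reads (minimum count 10), leaving 10324. For the fit, CPM were recomputed from the recovered reads of these genes, with TMM factors of 0.964 to 1.06. Limma (eBayes with trend) was fitted to log2(CPM + 1) on group alone, with Benjamini-Hochberg adjustment over all tested genes. Fold changes are on that log2 scale and understate those of low genes. CPM are printed as deposited, before TMM scaling. A count test on the recovered reads, edgeR's quasi-likelihood test, called 110 genes and DESeq2 275. Replicates were not copies of one another: their reads gave a chi-square per degree of freedom of 12.2 in Th9 and 7.54 in TL1A. The limma test alone was checked on simulated data.

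The members and lists were chosen with earlier results of these data known. One name match, the transcribed pseudogene Ndufs5-ps, was left out as not protein-coding. Ndufa4, placed in complex I by its name, is now counted with complex IV. Named with values were, for each complex, the 3 tested genes with the largest absolute log2 fold change and the most abundant; core subunits fixed by name; the isoform families of subunit c, Cox6a, Cox6b, Cox7a and Cox8; genes under the filter; and from each other list the gene with the smallest p. Genes named beyond this, among them the other motif genes, Cox4i1, Ndufab1, Pprc1, Esrra, Nrf1, Tfam and Ppargc1a, were chosen after their values were seen, as were the motif letters, of which those of NRF1 and YY1 were then shortened. Alternatives were RLE, upper quartile and total count scaling, other filters and pseudocounts, edgeR, DESeq2 and limma voom, the replicate number as a block, each library left out, a length and GC trend removed, and wider or narrower member choices. Python 3.11.15 (numpy 2.4.6, pandas 2.3.3, matplotlib 3.10.9) and R 4.3.3 (DESeq2 1.42.0, edgeR 4.0.16, limma 3.58.1) were used. One gene among the core subunits is counted in the totals and is not reported here by name.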

Additional observations from a re-analysis of the deposited data

How the results depend on the processing

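The count of 0 called subunit genes held under all other scalings, filters, tests and member choices tried, and ranged from 0 to 2 with 1 library left out. Leaving out each library gave median log2 fold changes of 0.0627 to 0.256 for all subunit genes, 0.00155 to 0.243 for complex I, 0.0628 to 0.408 for II, 0.0399 to 0.334 for III, 0.0299 to 0.253 for IV and 0.0609 to 0.26 for V. The low end was without Th9 replicate 1 except for complex IV (without Th9+TLA1 replicate 1), and the high end without Th9 replicate 2 except for complex IV (without Th9+TLA1 replicate 2). With the length and GC trend removed, the median was 0.000765 for all, -0.0597 for complex I and -0.0253 for IV. It was -0.00736 for III and 0.0315 for V, while that of complex II was 0.235, beside 0.247 in the main fit. With the longest transcript as length, a choice made after seeing the data, the median was -0.0106 for all and -0.0578 for I. It was then 0.223 for II, -0.0198 for III, -0.0449 for IV and 0.0175 for V. Total count scaling shifted the median of all tested genes to -0.101 and that of the subunit genes to 0.0342, so the gap between them was 0.136 beside 0.138. Replicate numbers are shared between the groups, but same-numbered libraries did not deviate together (correlation -0.011 over 10324 genes). With the replicate number as a block, the median was 0.125, 0 subunit genes and 225 genes in all were called.

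Of 638 values of 40 named genes under 16 settings, 609 kept direction and call, and 25 reversed in 11 genes; the cause was not tested. Atp5a1 reversed with RLE (0.00193), voom (0.00256) and the trend removed (0.0315). Removing the trend also reversed Atp5g2 (-0.106), Cox5a (-0.0253), Cox6a1 (-0.0401), Cox7a2 (-0.0159), Cyc1 (-0.138) and Uqcrc1 (-0.0412). Total count scaling reversed Cox5a (-0.0193) and Cyc1 (-0.0819). Cox7a1 reversed with a pseudocount of 5 CPM (0.0169), edgeR (0.156) and DESeq2 (0.165). With each library left out in turn, the ranges that crossed 0 were -0.229 to 0.237 for Atp5a1, -0.0873 to 0.233 for Cox5a, -0.424 to 0.201 for Cox5b, -0.813 to 0.687 for Cox7a1, -0.00427 to 0.253 for Cox7a2, -0.134 to 0.154 for Cyc1, -0.00712 to 0.546 for Ndufa9, -0.379 to 0.021 for Ndufv1 and -0.104 to 0.334 for Uqcrc1. With 2 libraries per group, the limma 95% interval reached a median of 0.48 (log2) to either side of the fitted value.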
